A study of Mus musculus with 2 samples.

Results

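Cells labelled erythroid-primed were taken as cells of the sorted stem and progenitor fraction that held at least 1 UMI (unique molecular identifier, a counted transcript molecule) of Klf1 and at least 1 of Car1. The cells had first to show at least 500 genes and under 10% mitochondrial UMIs. The rule found 87 cells among 7967. Of these, 49 were in the pool of control mice (3969 cells) and 38 in the pool of chelator-treated mice (3998 cells). The rule used measured transcripts, so the levels of Klf1 and Car1 below are a description, and every gene of the same cells is described against the rest without a test. Gata1, a marker that the rule left out, was found in 46 of the 49 control cells and in all 38 chelator cells, against 8.60% and 8.06% of the other cells. That marker was not particular to these cells, as 72.7% and 69.6% of the cells with Klf1 alone also held it (below). The stem and progenitor transcripts Ly6a and Cd34 were low and 1 cell held 48.5% globin (below). The cells are therefore called by their rule, Klf1+ Car1+, and not by a stage.

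Both pools were Lin- Sca-1+ c-Kit+ (LSK) bone marrow cells, the fraction that holds hematopoietic stem cells and multipotent progenitors, sorted after depletion of lineage-positive marrow. The mice were about 6 months old at the start. They received either the vehicle (HBSS, called control here) or the iron chelator deferoxamine at 50 mg/kg, given daily for 7 days every 4 weeks over 13 months. No genetic change is stated for either group, and the labels do not give the strain, the sex or the number of mice in a pool. About 20000 cells were sorted per sample, marked with a hashtag antibody for each condition and a panel of surface antibodies, pooled in equal amounts and read as 1 RNA and 1 antibody-tag library (CITE-seq, 10x Genomics 5' chemistry). There was 1 pool per condition. No replicate spread exists, no p-value is given, and every interval below is a 95% exact interval that covers counting error only.

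Erythroid cells make hemoglobin from globin chains and heme, and heme takes up most of the iron that the body moves. The factors GATA1 and KLF1 act together on erythroid genes, KLF1 through CACCC elements and GATA1 through GATA elements, and stem-like cells that first transcribe their targets are called primed. Transferrin receptor (CD71, gene Tfrc) brings in iron, the erythropoietin receptor (Epor) carries the survival signal, and carbonic anhydrases such as Car1 and Car2 are abundant red cell enzymes.

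The start regions of 4 genes that the results turn on are shown: Klf1 (the rule), Gata1 (the marker the rule left out), Epor (the receptor) and Ermap (an erythroblast membrane protein, almost private to these cells, that split them). Each runs from 250 bases before to 50 after the annotated start, 5′ to 3′ on the gene's strand, from RefSeq on GRCm38.p6. Capitals mark the GATA-type words AGATAA and TGATAA and the CACCC-type word CCNCACCC, searched on both strands, with no overlap between them.
Klf1, chr8:84901732-84902031, plus strand: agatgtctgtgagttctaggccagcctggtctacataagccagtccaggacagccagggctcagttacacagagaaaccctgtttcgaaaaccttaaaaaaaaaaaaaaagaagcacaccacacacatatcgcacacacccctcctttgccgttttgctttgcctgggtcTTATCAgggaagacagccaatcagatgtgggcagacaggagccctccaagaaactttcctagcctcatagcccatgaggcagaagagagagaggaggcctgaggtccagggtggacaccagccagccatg
Gata1, chrX:7967861-7968160, minus strand: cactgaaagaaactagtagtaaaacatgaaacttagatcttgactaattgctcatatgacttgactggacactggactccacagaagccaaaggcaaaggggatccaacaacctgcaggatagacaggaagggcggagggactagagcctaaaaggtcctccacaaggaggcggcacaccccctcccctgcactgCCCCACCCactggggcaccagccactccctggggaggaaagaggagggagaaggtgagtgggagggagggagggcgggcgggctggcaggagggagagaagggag
Epor, chr9:21963527-21963826, minus strand: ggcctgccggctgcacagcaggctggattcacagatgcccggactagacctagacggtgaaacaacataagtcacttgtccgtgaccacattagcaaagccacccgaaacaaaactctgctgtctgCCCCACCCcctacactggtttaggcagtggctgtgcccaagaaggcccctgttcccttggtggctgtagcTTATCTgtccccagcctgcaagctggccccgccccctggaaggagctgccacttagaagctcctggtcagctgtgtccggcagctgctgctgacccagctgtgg
Ermap, chr4:119189946-119190245, minus strand: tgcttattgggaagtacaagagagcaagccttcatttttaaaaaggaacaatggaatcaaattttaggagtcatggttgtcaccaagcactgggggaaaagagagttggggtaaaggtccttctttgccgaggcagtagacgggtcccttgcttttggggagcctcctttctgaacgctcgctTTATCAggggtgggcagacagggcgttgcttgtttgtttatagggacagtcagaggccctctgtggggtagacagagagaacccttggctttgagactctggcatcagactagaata
Klf1 and Ermap each held 1 GATA-type word, Gata1 held 1 CACCC-type word, and Epor held 1 of each kind. Among all 32851 such windows, 18.6% held AGATAA or TGATAA, 16.6% held CCNCACCC and 2.14% held both kinds. Of the 21 erythroid genes looked up, 15 had a window, and 11 of these had a single one. Among those 11, a GATA-type word stood in 7, CCNCACCC in 4 and both in 2. These are matches of letters and not binding sites.

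No barcode was shared between the matrices, and each of the 87 cells carried most hashtag UMIs of its own pool. The cells were deep. Their median was 22315 gene UMIs in the control pool (10236 to 74621) and 22288.5 in the chelator pool (9045 to 94651), against 13620 and 14389 in the other cells. The median mitochondrial share was 1.41% and 1.36%, against 2.09% in the others of both pools. Their antibody tags were fewer, at a median of 2093 and 2171 UMIs per cell against 3047.5 and 3462.5. Cells of both sexes were present: 19 control and 16 chelator cells held Xist, 26 and 17 held Y-linked transcripts, and 3 in each pool held both, which 1 cell should not. Over all cells, both were held by 35 of 3969 and 52 of 3998, so cells with both were more frequent among the 49 and 38. The pools differed in sex, with 1417 Xist and 1952 Y-linked cells in the control pool and 897 and 2542 in the chelator pool. The part of sex, doublets and depth in the results was not tested beyond the values given below.

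The Klf1+ Car1+ cells made up 1.23% of the control pool (0.915% to 1.63%) and 0.95% of the chelator pool (0.673% to 1.30%). The difference of -0.28 percentage points had an interval of -0.77 to 0.19, so no difference was detectable at this number of cells. In Xist cells the share was 1.34% in the control and 1.78% in the chelator pool, a difference of 0.44 points (-0.62 to 1.66). In Y-linked cells it was 1.33% and 0.669%, a difference of -0.66 points (-1.34 to -0.05). The 2 differences lay on opposite sides of 0, and the difference between them was not tested. When every cell was thinned to 5000 UMIs, 32 of 3810 control cells (0.84%) and 27 of 3860 chelator cells (0.70%) met the rule, and the 159 and 138 shallower cells left out included none of the 87.

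Car1 was close to a private transcript of these cells. They held 99.5% of all Car1 UMIs in the control pool and 98.7% in the chelator pool, but only 72.7% and 66.6% of the Klf1 UMIs. Car1 ran from 1 to 549 UMIs per cell with a median of 54 in the control cells, and from 1 to 457 with a median of 35.5 in the chelator cells. Klf1 ran from 1 to 42 with a median of 7, and from 1 to 36 with a median of 6.5. At the edge of the rule, 6 control and 7 chelator cells had a single Klf1 UMI, and 1 and 3 had a single Car1 UMI. Outside the rule, the highest Car1 count was 5 in the control pool and 32 in the chelator pool, and the highest Klf1 count was 5 and 8.

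**Figure D1:**
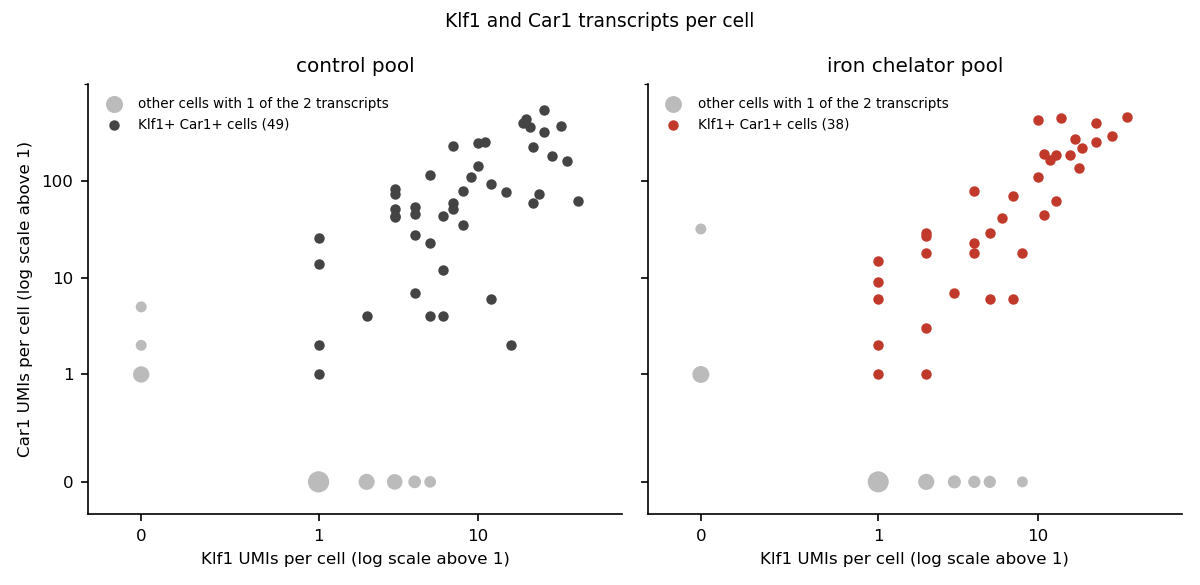
Klf1 (horizontal) and Car1 (vertical) UMIs per cell, on axes that are linear to 1 and logarithmic above, in the control and iron chelator pools. Dark and red points are the 49 and 38 cells that met the rule, and grey points are cells with 1 of the 2 transcripts, larger where more cells share a position; Car1 among the cells that met the rule reached 549 and 457 UMIs, and outside them only 5 and 32.

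Cells with 1 of the 2 transcripts differed as groups from the cells that met the rule, but part of them held erythroid transcripts. Epor was in 35.2% of the control and 36.5% of the chelator cells with Klf1 alone. It was in 71.4% and 63.2% of the cells that met the rule, and in 6.39% and 6.63% with neither transcript. In the chelator pool, Ermap had 1 UMI in cells with Klf1 alone, 2 with Car1 alone and 0 with neither. The 128 control and 115 chelator cells with Klf1 alone also held Gata1, in 72.7% and 69.6% of them. In the control pool, 52.3% of the Klf1-alone cells held Pf4, a platelet chemokine, at 504 CPM (counts per 1000000 gene UMIs, summed over the cells), against 10.2% and 3.32 CPM in the cells that met the rule. The 23 and 27 cells with Car1 alone held Gata1 at 18.5 and 17.8 CPM, close to the level of the other cells. Both transcripts were rare among lymphoid-primed cells with Dntt (872 and 942 cells, median 16999 and 18742.5 UMIs). Klf1 was seen in 1.15% and 1.38% of them and Car1 in 0.688% and 1.17%. The chelator shares include cells that met the rule, as 5.26% of those held Dntt. Over all cells outside the rule, Klf1 was in 3.27% and 2.90% and Car1 in 0.587% and 0.682%.

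Transcription factors of the erythroid lineage were led by Gata1. It stood at 201 CPM in the control cells and 194 CPM in the chelator cells, against 16.3 and 13.5 CPM in the other cells of each pool. On the log2 scale it was 3.63 higher (3.44 to 3.82) in the control pool and 3.85 higher (3.63 to 4.06) in the chelator pool. Epor was higher to a like degree, at 76.4 and 80.5 CPM against 5.85 and 5.66 CPM, log2 ratios of 3.71 and 3.83. Gfi1b, a repressor needed for red cell and platelet formation, had ratios of 1.87 and 1.29. The partners of GATA1 were closer to the other cells, with Tal1 at 0.64 and 0.34, Zfpm1 at 0.97 and 0.75, and Gata2, which GATA1 replaces during maturation, at 0.49 and 0.36. Nfe2, a factor of the platelet and red cell lines, was lower at -0.54 and -0.43, and Lyl1, a stem cell relative of Tal1, was lower at -1.83 and -1.36. Of the 19 regulators with at least 50 UMIs, 3 were at least 2-fold higher in both pools (Gata1, Epor and Gfi1b) and 1 was lower. Over all 6609 genes with at least 50 UMIs, 296 were so much higher (4.48%) and 249 so much lower (3.77%), with a median log2 ratio of 0.12 and 0.04.

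Membrane proteins and enzymes of red cells were far higher in these cells. Of 32 measured genes of that list, 24 were at least 2-fold higher in both pools and 0 were lower, and the list's median log2 ratio was 4.39 in the control pool and 4.05 in the chelator pool. Ermap had 353 UMIs in the 49 control cells and 0 in the other 3920, a log2 ratio of at least 12.24 against a floor of 3 UMIs over the group. In the chelator pool it had 186 UMIs against 3 outside, a ratio of 11.79 (10.22 to 14.08). Cldn13, a membrane protein of mouse erythroblasts, had 136 UMIs against 0 (at least 10.86) and 87 against 1 (9.76 to 17.60). Sphk1, which makes sphingosine-1-phosphate, had 236 UMIs against 2 (log2 10.37 to 15.29) and 162 against 1 (10.68 to 18.49). Tspo2, a transporter of maturing red cells, had 230 against 4 and 136 against 6 UMIs. It was in 83.7% of the control and 71.1% of the chelator cells, so it marked more of them than Ermap (59.2% and 47.4%).

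Blood group and skeleton genes followed. Rhd, of the Rh antigen complex, stood at 171 and 95.3 CPM against 0.32 and 0.20 CPM in the other cells. Its partner Rhag had log2 ratios of 6.80 and 6.54, and Kel (the Kell antigen) 8.45 and 8.31. Of the spectrin skeleton, Add2 (beta-adducin) had ratios of 9.67 and 10.45, Sptb (beta-spectrin) 7.00 and 7.31, and Ank1 (ankyrin) 6.66 and 6.12. Genes of broader use had smaller ratios, as in Aqp1 (a water channel, 5.08 and 4.55), Blvrb (biliverdin reductase B, 3.69 and 3.58), Ctse (a protease, 2.70 and 2.23) and Car2 (1.45 and 1.21). Slc4a1, the anion exchanger of mature red cells, was nearly silent, with 34 and 15 UMIs from 2 and 1 cells. Among the 12 genes with the highest ratios in both pools were also the red cell pyruvate kinase Pklr, the amino acid carrier Slc38a5, the sodium pump subunit Atp1b2, Prss50 and Col5a1, with ratios from 8.90 to 12.24 in the control pool.

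**Figure D2:**
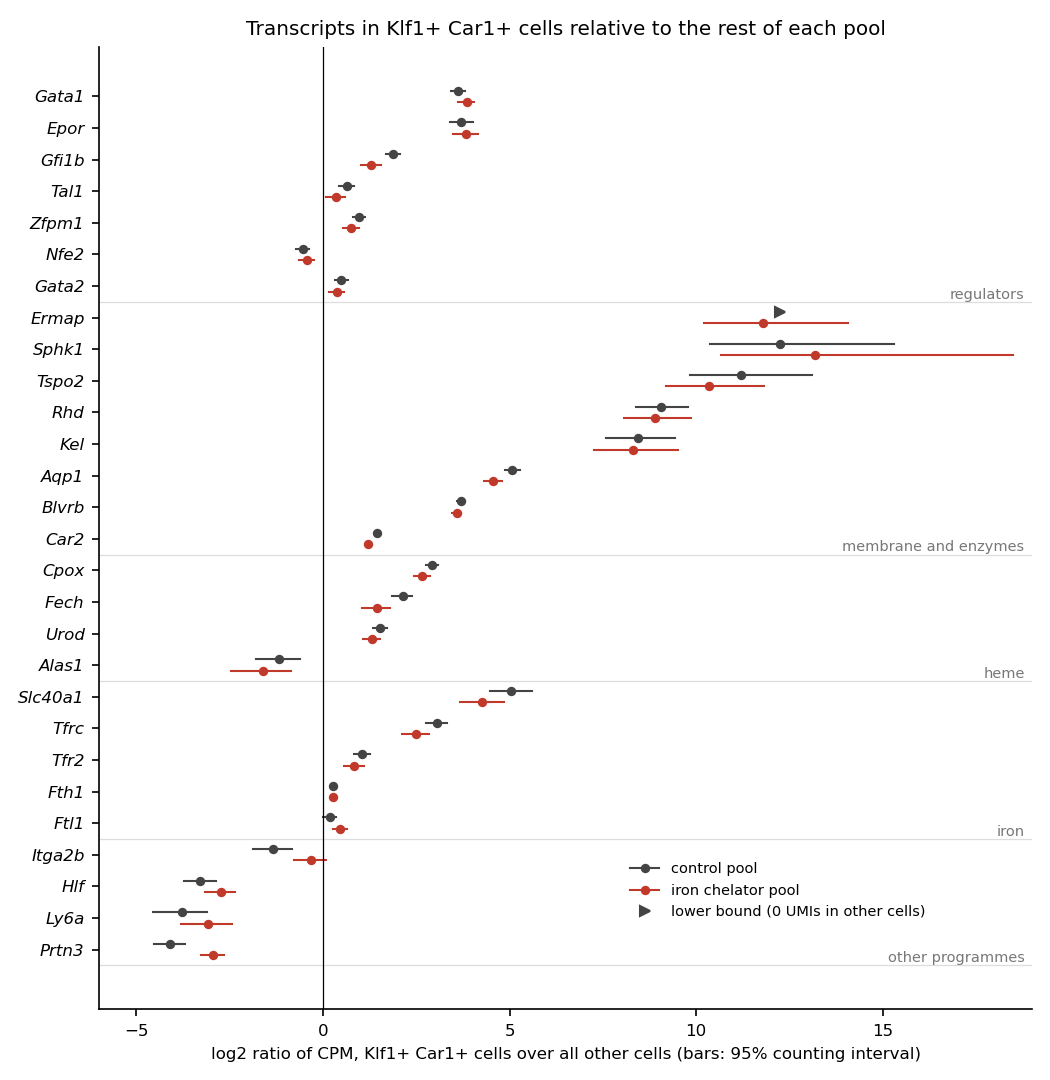
Log2 ratio of CPM in the Klf1+ Car1+ cells over all other cells of the same pool (horizontal), for genes grouped by role, with bars for the 95% counting interval and a triangle for the lower bound where no UMI was seen outside. Dark points are the control and red points the iron chelator pool: Gata1 lies at 3.63 and 3.85, Rhd at 9.05 and 8.90, and Hlf at -3.29 and -2.74.

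Transcripts of heme synthesis were higher along much of the pathway but not at its first step. Of 13 measured heme genes, 9 were at least 2-fold higher in both pools, with a list median of 1.87 and 1.30. Alad, the second enzyme, had ratios of 1.87 and 1.58, Urod 1.54 and 1.31, Cpox 2.93 and 2.65, and Fech, which inserts the iron, 2.13 and 1.44. Alas1, the general form of the first enzyme, had only 40 UMIs and was lower at -1.17 and -1.60. Alas2, the erythroid form, had 53 UMIs, and 42 of the 48 in the control pool came from 1 cell. Hmox2, which breaks heme down, was lower at -0.96 and -0.91.

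Part of the iron list was higher, but most of its genes did not differ by 2-fold in both pools. Of 15 measured, 4 were at least 2-fold higher in both pools: Slc40a1 (ferroportin, the exporter), Steap3 (which reduces iron in the endosome), Slc11a2 (which carries it to the cytosol) and Tfrc. Slc40a1 stood at 33.2 and 29.7 CPM against 1.0 and 1.55 CPM, log2 ratios of 5.05 and 4.27. Tfrc stood at 88.4 and 62.1 CPM against 10.7 and 11.0 CPM and was seen in 46.9% and 44.7% of the cells. Tfr2, which binds transferrin beside the erythropoietin receptor, had ratios of 1.05 and 0.83. Ferritin heavy chain (Fth1) was near the other cells at 0.27 and 0.26, and Ncoa4, which sends ferritin for breakdown, was lower at -1.15 and -0.96.

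Transcripts of other lineages were low. The summed level of the stem cell list was 338 and 394 CPM against 1621 in the other cells of both pools, and 4 of its 5 measured genes were at least 2-fold lower in both. Hlf, a stem cell factor, had ratios of -3.29 and -2.74, and Ly6a, the gene of the Sca-1 antigen used for the sort, stood at 11.3 and 16.6 CPM against 156 and 140. Cd34 stood at 12.6 and 41.1 CPM against 362 and 355. The granulocyte and monocyte list summed to 79.1 and 159 CPM against 1466 and 1544, the lymphoid list to 5.98 and 21.9 against 556 and 508, and the megakaryocyte list to 274 and 345 against 951 and 949. Pf4 had 5 and 11 UMIs in all, and Il7r, Rag1, Rag2, Ebf1 and the eosinophil genes Epx and Prg2 were at 0 in both pools. The mast cell and basophil list summed to 59.1 and 55.1 CPM against 94.6 and 48.3, with Mcpt8 and Prss34 at 0. A gene known from mast cells and basophils was high: Il1rl1, the interleukin-33 receptor, at 25.9 and 25.4 CPM against 1.31 and 0.70. The 8 genes with the lowest ratios were Adgrl4, Prtn3, Limd2, Lcp1, Tmem176a, Pkm, Zfp36 and Elmo1, from -2.09 to -4.10 in the control pool. Pkm, the common pyruvate kinase, was at -3.16 and -2.13 where its red cell relative Pklr was at 12.24 and 10.63.

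Few genes of cell division differed by 2-fold, near the share over all genes (4.48%). The medians of both division lists were nevertheless above those over all genes (0.12 and 0.04). The S-phase list had a median of 0.48 and 0.21 with 1 of 23 genes (Cdc6) at least 2-fold higher in both pools. The G2 and M-phase list had a median of 0.85 and 0.28 with 1 of 20 (Cenpa). Heat shock genes were higher, 5 of 10 by at least 2-fold in both pools, among them the mitochondrial chaperones Hspd1 (1.18 and 1.23) and Hspe1 (1.11 and 1.32). Immediate-early genes, which cell handling can raise, were lower, 5 of 12 by at least 2-fold, among them Egr1 at -1.78 and -1.53 and Zfp36 at -2.09 and -2.45.

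As a comparison, cells with Pf4 and Gata1 (209 in the control and 199 in the chelator pool, 5 and 4 of them also Klf1+ Car1+) held Gata1 at 142 and 128 CPM and Gata2 at 276 and 260 CPM. Their summed red cell membrane and enzyme list was 3104 and 3109 CPM, against 7680 and 6172 in the Klf1+ Car1+ cells (a sum that leaves out Car1). The erythroid regulators were shared more, with sums (without Klf1) of 3085 and 3087 CPM against 3369 and 2939. Gfi1b stood at 114 and 115 CPM against 175 and 114. Epor was at 24.5 and 25.6 CPM against 76.4 and 80.5, and in 40.7% and 40.2% of the cells with Pf4 and Gata1. Tfrc was at 10.8 and 11.9 CPM against 88.4 and 62.1, and Slc40a1 at 0.82 and 1.95 against 33.2 and 29.7. Mki67, a marker of dividing cells, stood at 472 and 414 CPM against 508 and 319. The CD41 tag had a median of 47 and 56 UMIs per cell, against 6 and 7.5.

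Because the cells were deep, shares of cells with a transcript were compared again after thinning each cell to 5000 UMIs. Gata1 was then seen in 61.2% and 55.3% of the Klf1+ Car1+ cells against 4.55% and 3.95% of the others. Tspo2 was seen in 49.0% and 39.5% against 0.027% and 0.026%, Aqp1 in 67.3% and 50.0% against 3.06% and 3.56%, and Tfrc in 20.4% and 13.2% against 4.73% and 4.92%. The shares thus differed at equal depth as well, except for Tfrc in the chelator pool. Its interval there, 4.41% to 28.1%, included the share of the other cells.

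Surface antibody tags were not used by the rule, though they come from the same cells. Of 81 antibodies with at least 300 tag UMIs, 7 were at least 2-fold higher in both pools (8.64%) and 3 lower (3.70%), as shares of all surface-tag UMIs. Per cell, 6 were higher and 12 lower. CD71 was highest, with log2 ratios of 4.41 (4.35 to 4.46) and 4.56 (4.49 to 4.62). Its median count was only 6 and 4.5 UMIs per cell, against 3 and 2 in the other cells, and its highest was 588 and 379, so the CD71 signal came from some of the cells. The other 6 were CD170 (2.61 and 2.71), integrin beta 7 (2.21 and 2.36), CD98 (an amino acid transporter chain, 1.63 and 1.54), CD49d (integrin alpha 4, 1.60 and 1.51), CD55 (which protects from complement, 1.64 and 1.48) and CD11a (1.25 in both, but 0.97 and 0.83 per cell, under 2-fold). Integrin beta 7 was broadly spread, with medians of 28 and 41.5 UMIs against 7 and 8.

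Lower were CD62L (L-selectin, -2.09 and -1.86), CD61 (a platelet integrin chain, -1.77 and -1.45) and CD371 (-1.29 and -1.44). Of the sort antigens, the Sca-1 tag had a median of 2 UMIs in both pools against 6 and 7, and the CD117 (c-Kit) tag 765 and 715 against 846 and 900. As a share of tag UMIs, CD117 was higher, with log2 ratios of 0.37 and 0.42. CD49f, an integrin of stem cells, had a median of 201 and 225.5 UMIs against 756.5 and 880, and CD41 6 and 7.5 against 14 and 16. The CD34 tag was weak in all cells, at a median of 3 UMIs in both pools against 4, and so could not be set against its transcript. Its ratios were 0.26 and 0.09 as a share of tag UMIs, and -0.02 and -0.33 per cell. Ter-119, the mark of late red cells, had 74 and 25 tag UMIs in all, and isotype control antibodies took 0.44% and 0.39% of tag UMIs, as in the other cells (0.38% and 0.40%).

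Conventional gates for stem cells and multipotent progenitors (MPP) were drawn on CD135, CD48 and CD150. The MPP2 gate (CD135- CD48+ CD150+), known for its bias to platelets and red cells, held 12 of the 49 control cells (24.5%, 13.3% to 38.9%) and 13 of the 38 chelator cells (34.2%, 19.6% to 51.4%). In the other cells its share was 2.02% and 2.20%. The reverse view gave less: only 13.2% and 13.0% of the cells in the MPP2 gate met the rule. The stem cell gate held 4 cells in each pool (8.16% and 10.5%, against 29.5% and 33.0%), and the MPP4 gate held 9 and 6 (18.4% and 15.8%, against 38.3% and 32.5%). Another 28.6% and 15.8% fell in no gate, against 3.62% and 2.93%. These shares moved with the thresholds: raised by 0.25 they left 10.2% and 5.26% of the cells in no gate, and lowered by 0.25 they left 42.9% and 31.6%. The MPP2 shares were then 32.7% and 31.6%, and 18.4% and 23.7%.

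**Figure D3:**
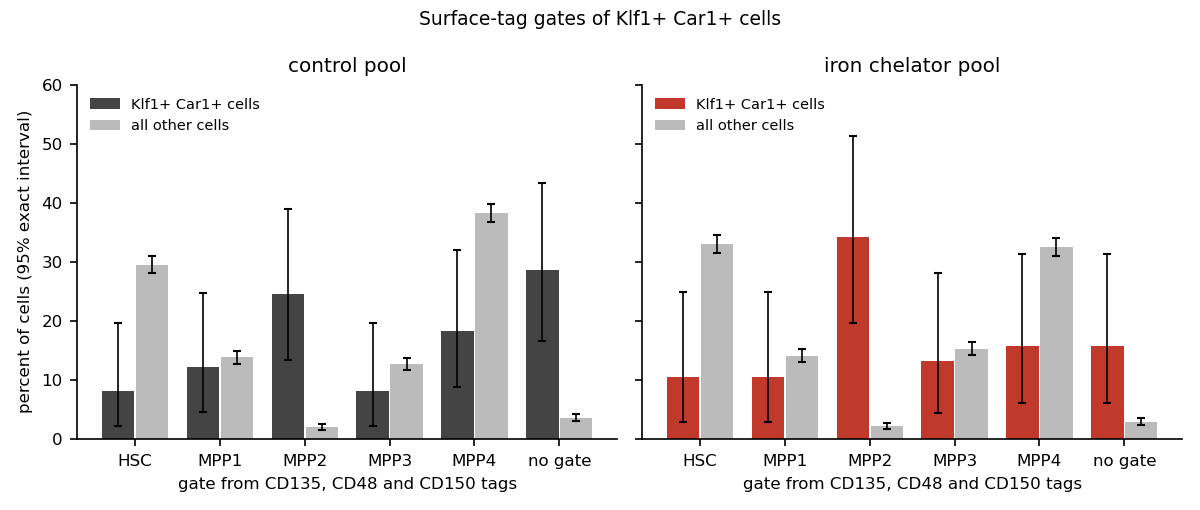
Percent of cells (vertical) in each surface-tag gate for Klf1+ Car1+ cells (dark and red bars, 49 and 38 cells) and all other cells (grey bars) in the control and iron chelator pools, with 95% exact intervals. The MPP2 gate holds 24.5% and 34.2% of the Klf1+ Car1+ cells against 2.02% and 2.20% of the others.

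The cells were not uniform. With Ermap as a divider, chosen after its values were seen, 29 of 49 control cells (59.2%, 44.2% to 73.0%) and 18 of 38 chelator cells (47.4%, 31.0% to 64.2%) held at least 1 Ermap UMI. Those with Ermap were deeper, at a median of 33324 and 43158 UMIs against 18907.5 and 16101. Their CD71 tag had a median of 29 UMIs (0 to 588) and 63 (2 to 379), against 3 (0 to 8) and 1.5 (0 to 10) in the cells without. A count of at least 10 was found in 19 of 29 and 14 of 18 cells with Ermap, and in 0 of 20 and 1 of 20 without. So nearly all of the CD71 signal lay on the Ermap side. Thinned to 5000 UMIs, 18 control and 11 chelator cells kept an Ermap UMI, and CD71 was at least 10 in 11 of 18 and 10 of 11 of them, against 8 of 31 and 5 of 27 of the rest.

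Other tags moved with the divider. CD24 had a median of 27 and 32.5 UMIs with Ermap against 5.5 and 5 without, CD98 47 and 50 against 12.5 and 10, and CD55 124 and 138.5 against 67.5 and 60.5. In the other direction, CD49f had 111 and 143 against 366.5 and 391, CD49b 7 and 8 against 31.5 and 22, integrin beta 7 16 and 18.5 against 43.5 and 51, and CD150 15 and 25.5 against 56 and 34. The integrin beta 7 tag, high in the whole set, was therefore highest in the cells without Ermap, where CD71 tags were few. CD117 differed less, at 805 and 936 against 734.5 and 621.5.

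**Figure D4:**
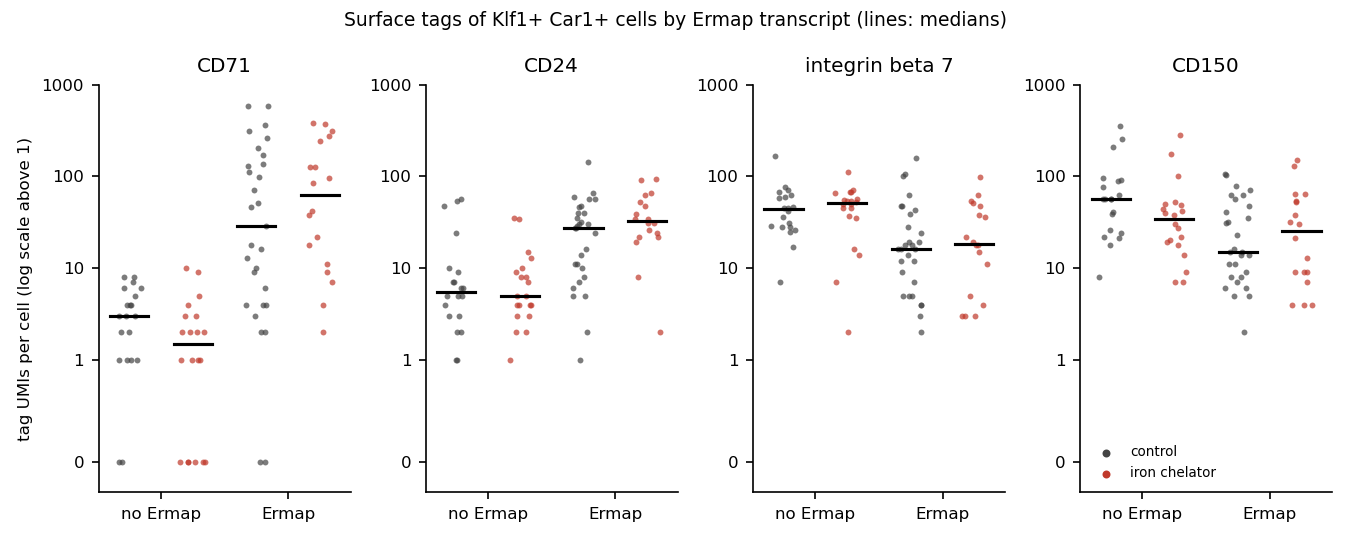
Tag UMIs per cell (vertical, linear to 1 and logarithmic above) of CD71, CD24, integrin beta 7 and CD150 in Klf1+ Car1+ cells without and with Ermap transcripts; each point is a cell of the control (dark) or iron chelator (red) pool and lines are medians. CD71 medians are 29 and 63 with Ermap against 3 and 1.5 without, while integrin beta 7 medians are 16 and 18.5 against 43.5 and 51.

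In RNA, no difference in Gata1 was detectable between the 2 sides, and many other genes differed. The log2 ratio of cells with Ermap over cells without was 0.24 (-0.16 to 0.65) for Gata1 in the control pool and 0.00 (-0.42 to 0.44) in the chelator pool. Epor was higher with Ermap at 1.0 and 1.80, Tfrc at 3.15 and 2.83, Slc40a1 at 3.06 and 2.13 and Cpox at 3.56 and 2.74. Rhd had 256 UMIs against 2 in the control pool and 109 against 0 in the chelator pool, and Ank1 111 against 0 and 50 against 1. Car1, which the rule used, was also higher at 1.89 and 2.29. Gata2 was lower at -1.68 and -2.33, a pattern opposite to that of Epor. Factors of stem cells and platelets were lower too: Meis1 at -3.45 and -2.58, Fli1 at -3.00 and -2.73 and Itga2b (the CD41 gene) at -2.52 and -2.71. Cpa3, a mast cell protease, was at -3.36 and -3.83. Among division genes, Mki67 was at 0.17 and 0.41 and Top2a at -0.07 and -0.17. The G2 and M-phase list had a median of 0.24 and 0.56, and its sum was 3501 against 3060 CPM in the control pool and 2753 against 1691 in the chelator pool.

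By list, 19 of 31 measured red cell membrane and enzyme genes were at least 2-fold higher with Ermap in both pools and 2 lower (Apoe and Muc13). Over all 6608 genes, 4.46% were so much higher and 6.61% lower. All 4 globins, 3 of 13 heme genes, 2 of 15 iron genes and 3 of 10 heat shock genes were at least 2-fold higher. Most globin UMIs with Ermap lay in 1 cell of each pool (below), so the globin sums rest on single cells. Hbb-bs was in 34.5% of control cells with Ermap against 5% without, but in 5.56% against 5% in the chelator pool. Hbb-bt was in 27.6% against 30% and 27.8% against 15%. Hba-a1 was in 27.6% against 0% and 11.1% against 5%, and Hba-a2 in 24.1% and 11.1% against 0%. At least 2-fold lower with Ermap were 11 of 12 immediate-early genes, 5 of 6 megakaryocyte genes and 3 of 5 stem cell genes. No S-phase or G2 and M-phase gene passed in either direction. The immediate-early list summed to 698 and 964 CPM with Ermap against 3680 and 2435 without. After division at 5000 UMIs, some single genes lay on the same side in both pools, with Fli1 at 33.3 and 18.2 CPM against 123 and 126, Gata2 at 189 and 36.4 against 355 and 333, and Cpox at 222 and 236 against 116 and 96.3. Others did not: Tspo2 stood at 111 against 181 CPM in the control pool and 218 against 111 in the chelator pool, and Gata1 at 233 against 161 and 145 against 200. The lists were not divided at that depth.

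The second question of the design is whether these cells differed after iron chelation. The regulators were close. Gata1 had 201 CPM in the control and 194 CPM in the chelator cells, a log2 ratio of -0.05 for chelator over control, and Epor had a ratio of 0.07. Klf1 and Car1, which the rule used, were at -0.22 and 0.07. Gfi1b was the 1 regulator of 19 that was at least 1.5-fold lower, at 175 against 114 CPM (-0.63, -0.94 to -0.32). The list's median was -0.17, with 5 genes above and 14 below 0, where the median of all 6609 genes was -0.05, 2.47% of genes were at least 1.5-fold higher and 8.08% lower.

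Red cell membrane and enzyme genes were more often lower in the chelator cells. Of 32 membrane and enzyme genes, 30 were below 0 and 11 at least 1.5-fold lower, with a median of -0.39 (-0.38 in Xist and -0.33 in Y-linked cells, and -0.12 after thinning to 5000 UMIs). Rhd stood at 171 against 95.3 CPM (-0.85, -1.18 to -0.52), Add2 at 92.4 against 42.9 (-1.11, -1.61 to -0.63), Sptb at 55.8 against 21.9 (-1.35, -2.06 to -0.69) and Ermap at 235 against 163 (-0.53, -0.79 to -0.27). The value for Ermap was -0.83 in Xist cells and -0.31 in Y-linked cells, and for Rhd it was -0.58 in Y-linked cells. Sphk1 (-0.15), Blvrb (-0.10) and Tspan33 (-0.17) were nearer to 0.

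Of 13 heme genes, 12 were below 0 and 6 at least 1.5-fold lower, with a median of -0.49 (-0.44 in Xist and -0.34 in Y-linked cells, and -0.44 after thinning). Ppox, which makes the last precursor of heme, stood at 60.5 against 24.5 CPM (-1.30, -1.97 to -0.68) and was seen in 73.5% of the control and 39.5% of the chelator cells. Slc25a38, the glycine carrier of mitochondria, was at -1.11, Abcb6 at -1.44 and Fech at -0.59. Alas2 had 48 against 5 UMIs, but 42 of the 48 were in 1 cell. The 15 iron genes had a median of -0.15, with 6 above and 9 below 0, and 0 reached 1.5-fold. Tfrc, whose mRNA is known to be stabilised when cells lack iron, came closest, at 88.4 against 62.1 CPM (-0.51, -0.95 to -0.08), while the CD71 tag was at -0.24 and Fth1 at 0.02.

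**Figure D5:**
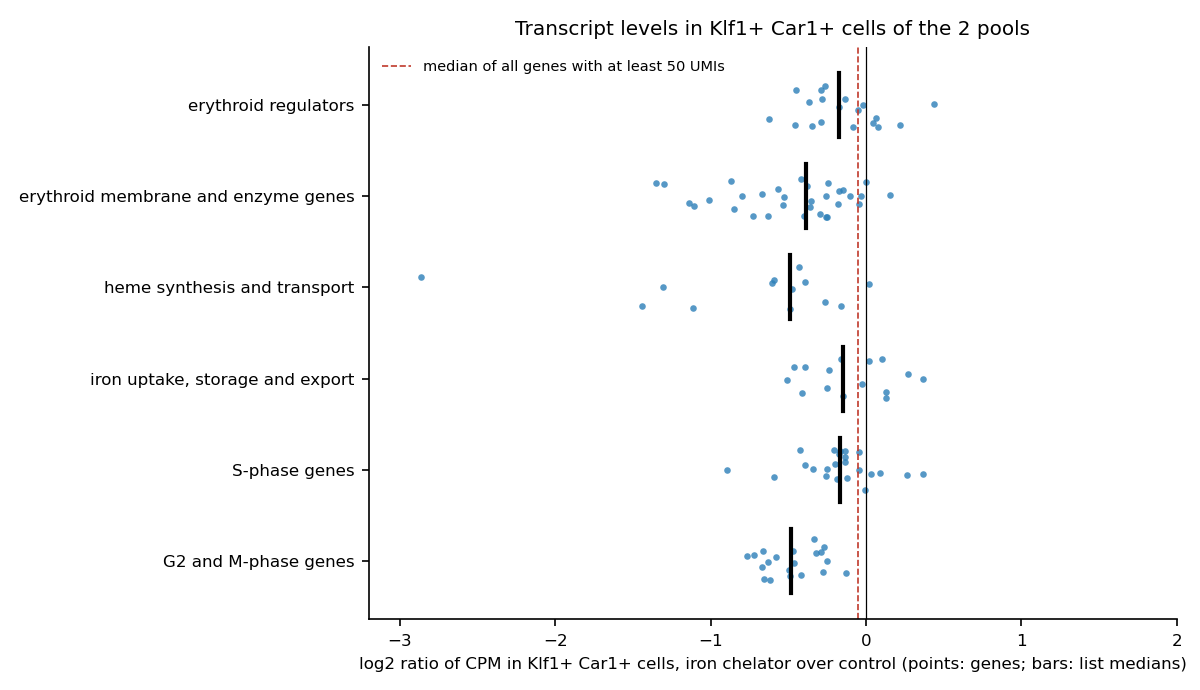
Log2 ratio of CPM in Klf1+ Car1+ cells, iron chelator over control (horizontal), for the measured genes of 6 lists (points) with the list medians (black bars) and the median of all genes with at least 50 UMIs (dashed line, -0.05). The list medians run from -0.15 (iron) and -0.17 (regulators and S-phase) to -0.39 (membrane and enzymes), -0.48 (G2 and M-phase) and -0.49 (heme).

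The mix of cells with and without Ermap was set beside these ratios. The share with Ermap differed by -11.8 points, chelator minus control, with an interval of -33.3 to 10.7. Among cells with Ermap alone, the chelator over control median was -0.44 for membrane and enzyme genes and -0.58 for heme genes. Among cells without, these were -0.16 and -0.09. As shares of the whole pool, cells with Ermap made up 0.73% of the control and 0.45% of the chelator pool (difference -0.28 points, -0.65 to 0.07), and cells without 0.50% of both. The part of this mix in the lower medians was not tested.

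G2 and M-phase genes were below 0 in all 20 measured, with a median of -0.48 and 7 at least 1.5-fold lower. Mki67 stood at 508 against 319 CPM (-0.67), Top2a at 437 against 277 (-0.66) and Tpx2 at 146 against 88.3 (-0.72). The S-phase list was nearer to 0 at -0.17. Thinned to 5000 UMIs, with the rule applied again, the G2 and M-phase median was -0.02, a value from 32 and 27 cells and fewer measured genes, so depth and the choice of cells changed together. In the other cells of the 2 pools Mki67 was at 237 against 261 CPM.

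Across all genes with at least 100 UMIs, 52 of 4299 (1.21%) were at least 1.5-fold higher and 214 (4.98%) lower in the chelator cells. The balance changed with the setting: 57 were higher and 59 lower in Xist cells, 31 and 172 in Y-linked cells, 78 and 162 with scaling by the median of ratios, and 8 and 2 after thinning, when 353 genes were left. The 10 highest included genes of antigen presentation and interferon response. H2-Ab1, a class II chain, had 60 UMIs in the control and 108 in the chelator cells, 39.9 against 94.4 CPM (1.24). Its protein, read by the I-A/I-E tag, had 407 against 564 tag UMIs, 3009 against 5294 per 1000000 surface-tag UMIs (0.82). In the other cells the tag stood at 5440 and 5291 on that scale and the transcript at 172 and 162 CPM. Per Klf1+ Car1+ cell, the tag's median was 3 against 4.5 UMIs. A count of at least 10 was found in 14 control and 12 chelator cells, and 1 chelator cell held 90 UMIs. The interferon-response genes Irf1 and Ifi47 were at 0.99 and 0.98. In the chelator pool, 1 cell held 32.4% of the Irf1 UMIs and 1 cell 20.3% of the Ifi47 UMIs. Irf1 was seen in 36.7% of the control and 39.5% of the chelator cells. Against the other cells both genes had log2 ratios under 0, at -1.67 and -0.53 for Irf1 and -1.07 and -0.18 for Ifi47. Others among the 10 were Prtn3 (1.21), Pkm (1.05), Cd63 (0.84), Washc1 (0.81) and Washc3 (0.79). By sex, H2-Ab1 stood at 41.8 against 145 CPM in Xist cells and 34.1 against 60.6 in Y-linked cells. Cd63 turned direction, at 59.8 against 165 CPM in Xist cells and 93.2 against 80.8 in Y-linked cells (-0.21). The 10 lowest were the 4 globins, Hspa1b (77.7 against 14.0 CPM, -2.47), Myh10 (-1.79, but 0.19 among cells without Ermap), the histone genes Hist1h2bn (-1.47) and Hist1h2bg (-1.45), Aspm (-1.36) and Sptb. Hspa1b and Hspa1a are near-identical copies whose counts may be split, and both were also lower in the other cells of the chelator pool (27.4 against 5.80 and 17.3 against 4.04 CPM).

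Adult globin transcripts were present in few of the cells and most of them in single cells. Hbb-bs (beta-globin) had 5210 UMIs in the control cells, 5113 of them in 1 cell, and 345 in the chelator cells, 344 of them in 1 cell. It was seen in 22.4% of the control and 5.26% of the chelator cells (11 and 2), against 3.42% and 5.10% of the other cells, so the chelator share was at the background. Hbb-bt had 1433 UMIs in 14 control cells and 261 in 8 chelator cells (28.6% and 21.1%, against 12.6% and 13.6% of the other cells), Hba-a1 651 in 8 and 66 in 3, and Hba-a2 328 in 7 and 16 in 2. The globin copies are similar in sequence, so counts may be split between them. The embryonic genes Hbb-y, Hbb-bh1 and Hba-x were at 0. With all cells, the chelator over control log2 ratios were -3.52 for Hbb-bs, -2.06 for Hbb-bt, -2.91 for Hba-a1 and -3.96 for Hba-a2.

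These ratios set 1 control cell against 1 chelator cell. The 2 cells of each matrix with most Hbb-bs UMIs included 1 Klf1+ Car1+ cell in each pool. The control one had 15126 UMIs from 2217 genes, 48.5% of them globin, with 16 Klf1, 2 Car1, 579 CD71 and 32 Ter-119 UMIs. It held 9020 tag UMIs in all, against a median of 2093 in the control Klf1+ Car1+ cells. An isotype control tag reached 30 UMIs in 1 of these control cells. Its Ter-119 count was therefore not read as a surface level. The chelator one had 34259 UMIs, 1.95% of them globin, with 379 CD71 UMIs. The richest cell of the control pool held 28.1% globin and 368 CD71 UMIs but no Klf1 and no Car1, and so stood outside the rule.

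Without these cells, 48 control and 37 chelator cells remained. Hbb-bs then had 97 UMIs in 10 control cells, 73 of them in 1 cell, against 1 UMI in the chelator pool, a log2 ratio of -6.17 (-11.5 to -3.66). Hbb-bt had 116 UMIs, 100 of them in 1 cell, against 14, a ratio of -2.62 (-3.54 to -1.82). Hba-a1 had 64 against 2 UMIs (-4.57) and Hba-a2 14 against 2 (-2.38). The direction stayed, but again on single cells, and the intervals do not cover the spread between cells. Over the whole pools without these cells, Hbb-bs had 463 and 438 UMIs (-0.15) and Hbb-bt 1867 and 1852 (-0.08), while Hba-a1 had 93 and 38 (-1.36, -1.95 to -0.80) and Hba-a2 35 and 21 (-0.81). With the globin-rich cells kept, the direction within the Y-linked cells was the opposite. Hbb-bs had 95 UMIs in the control and 345 in the chelator cells, and Hbb-bt 111 and 257. Of these chelator UMIs, 344 of Hbb-bs and 247 of Hbb-bt were in the 1 globin-rich cell that was left out above.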

How the data were processed

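RNA and surface-tag UMIs of 2 pools of cells, separated by hashtag, were analysed from raw UMI counts per gene and cell that the authors deposited, 1 matrix per condition, the matrix named IC being read as the iron chelator pool from its hashtag label. Cell Ranger 7.0.0 and Seurat 4.3.0 are named per the submitters' processing notes, the header of the matrices gives 7.0.1, and the build was mm10. The total was 63370500 UMIs over 4026 control barcodes and 66573400 over 4037 chelator barcodes (to 6 digits), of which 57 and 39 were removed by the cell filter. No doublet caller was run; cells holding at least 2 UMIs each of Xist and of Y-linked genes were counted in its place.

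UMIs were summed over cells and divided by the sum of gene UMIs (CPM). Ratios have exact conditional binomial intervals, shares Clopper-Pearson intervals, all at 95%, for counting error only. A gene of a list was measured at 50 UMIs in the 87 cells. Fold limits were 2 against other cells and 1.5 between pools. A value of 0 was set against a floor of 3 UMIs over the group. Gates used 2-component mixtures on centred log ratios of CD135, CD48 and CD150.

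Named genes were Klf1, Car1, Gata1, Gfi1b, Epor, Alas2, Tfrc and the globins, then, with at least 100 UMIs and a UMI in 10% of the cells, the 12 highest and 8 lowest against other cells and the 10 highest and 10 lowest between pools whose interval left out no change (without mitochondrial, predicted, immunoglobulin and T-cell receptor genes). The most counted genes of each list and any past the fold were added. Members and lists were chosen with earlier results of these data known; the division by Ermap, its named genes and Il1rl1, Cd34 and Tpx2 were chosen after values were seen. Ahsp was not measured here, and some genes that the rule named are not reported here. Alternatives were other cell filters, member rules, depth, sex, doublets, scaling, weighting, minimum UMIs and gate thresholds. The ratio and its interval were tested on simulated data. Python 3.11.15, numpy 2.4.6, scipy 1.17.1, pandas 2.3.3, scikit-learn 1.9.0 and matplotlib 3.10.9 were used.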

Additional observations from a re-analysis of the deposited data

Results flagged for a closer look

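The globin ratios between pools stood on opposite sides of 0 in cells of the 2 sexes. Hba-a1 had a chelator over control log2 ratio of -8.92 in Xist cells and 0.76 in Y-linked cells, and Hbb-bt -9.08 and 1.90. In Xist cells Hba-a1 had 589 UMIs in the control and 1 in the chelator pool, and Hbb-bt 1321 and 2. In Y-linked cells Hba-a1 had 62 and 65, and Hbb-bt 111 and 257. The most globin-rich control cell of the set is an Xist cell and that of the chelator pool a Y-linked cell, and they hold most of these UMIs. The difference between the sexes was not tested.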

How the results depend on the processing

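No paired analysis was possible because each condition is 1 pool of cells. With 1 pool each and 49 and 38 cells, the precision is limited by the number of cells, and the intervals cover counting error only. Across the alternatives, 153 values for the main results stayed within their counting interval (within 1.5 times for counts of genes), 26 moved and 2 changed sign, and for single genes 433 stayed, 53 moved and 7 changed sign. Thinned to 5000 UMIs, the G2 and M-phase median was -0.018, 2 genes were at least 1.5-fold lower and 8 higher between pools, and 51 were at least 2-fold higher and 12 lower against other cells. In Xist cells the share difference was 0.44 points, 59 genes were lower (57 higher) and Hbb-bt was at -9.08. In Y-linked cells 31 genes were higher (172 lower), Tspo2 was at 0.019, Cd63 at -0.21, Hba-a2 at 0.88, Hbb-bs at 2.55, Hba-a1 at 0.76 and Hbb-bt at 1.90. Without cells of both sex markers, 33 genes were higher between pools and 7 tags were lower against other cells. With at least 2 UMIs of Klf1 and Car1, 7 tags were lower, and per cell in place of per tag UMI 12 were lower. As a mean of per-cell CPM, 83 genes were higher, Hbb-bs was at -4.71 and Hbb-bt at -3.17. Without the globin-rich cells these were at -6.17 and -2.62. A minimum of 20 UMIs gave 999 lower and 442 higher genes, and 200 UMIs gave 55 and 20. Among cells without Ermap, the heme median was -0.094, 34 genes were lower and 23 higher, Col5a1 and Myh10 were at 0.19 and Adgrl4 at -0.14. With gate thresholds lowered by 0.25, 2.04% of the control cells were in the stem cell gate. The cause of these changes was not tested, beyond the smaller number of cells, UMIs or genes that each alternative leaves by construction.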
